A study of Sus scrofa with 6 samples.

Results

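The genes described here code for the subunits of the mitochondrial respiratory chain and of ATP synthase, together with a few factors that assemble them. A probe set was a member when the array's annotation gave it a single gene symbol beginning with NDUF, UQCR, ATP5, SDHA to SDHD, or COX and a digit. This gave 84 probe sets of 65 genes, among 23999 tested probe sets and 6765 genes with a probe set of their own. Of these genes 32 belong to complex I, 4 to complex II, 2 to complex III, 8 to complex IV and 13 to ATP synthase (complex V), and 6 are assembly or associated factors. Another 5 probe sets carried such a symbol beside a second symbol or a repeat of it and were not members. On average over the arrays 73 member probe sets were brighter than the median tested probe set, and 11 were not.

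The samples were epithelial cells scraped with a glass slide from the first 10 cm of both uterine horns of 3 multiparous crossbred Landrace x Large White sows, on day 6 after laparoscopic insemination. In every sow 1 oviduct received spermatozoa and the contralateral oviduct received diluent only, so that 1 horn held embryos at the blastocyst stage and the other held oocytes. The RNA of the 6 horns was hybridized to 6 Affymetrix porcine arrays, so that each group (embryos or oocytes) had 3. Both horns of a sow shared the same circulation and the same surgery. The horn with embryos had also received the insemination, so the embryo and the spermatozoa cannot be told apart.

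Oxidative phosphorylation takes place at the inner mitochondrial membrane. Complex I takes electrons from NADH and complex II takes them from succinate, both pass them to ubiquinone, complex III hands them on to cytochrome c, and complex IV gives them to oxygen. Complexes I, III and IV pump protons across the membrane, and ATP synthase lets the protons flow back and makes ATP. The catalytic subunits of complex IV, the cytochrome b of complex III and several membrane subunits of complexes I and V are coded by mitochondrial DNA, and all others by nuclear genes. None of 10 mitochondrially coded symbols looked for was given to a probe set, so all the values below are those of nuclear genes. The nuclear subunits NDUFS8, UQCRC1, UQCRC2, UQCRFS1, COX4I1, COX5A and ATP5C1 had no probe set of their own name and were not analysed here.

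The signals of these genes were nearly the same in the horns with embryos and in the horns with oocytes. The median log2 difference, embryos minus oocytes, was -0.03 over the 84 probe sets, with quartiles of -0.12 and 0.07, and 0.01 over all tested probe sets. Within sows 1, 2 and 3 the median of the members was -0.09, 0.04 and -0.04. A total of 37 probe sets were higher and 47 lower with embryos. All 3 sows had the higher value in the horn with embryos for 4 probe sets (14.9% of all tested probe sets did so), and the lower value there for 12 (14.8% of all tested).

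No member passed the adjusted threshold of 0.05 in limma's moderated test, where 0 of the 23999 probe sets passed (0%) and the smallest adjusted p of the members was 1.00. At an unadjusted p under 0.05 there was 1 member, 1.19% of the 84, against 2.88% of all tested probe sets. With the sow as a block, which compares the 2 horns within a sow, 4 members (4.76%) had such a p, against 8.7% of all tested, and their smallest adjusted p was 0.479. The normalized values of the 2 groups did not overlap for 2 members (2.38%, against 8.01% of all tested), and both were higher with embryos (4.03% of all tested). These shares lay below those of all probe sets. The members were also brighter than most probe sets, and the part of signal in these shares was not tested. Among members above the median signal 0% had an unadjusted p under 0.05 from limma, 5.48% with the block, and 1.37% did not overlap. Among all probe sets above that signal these shares were 1.94%, 11.9% and 6.63%. At or above the members' own median signal they were 0%, 4.76% and 2.38% of members, against 0.824%, 10.7% and 4.12% of all probe sets. The share with the block was thus not smaller among brighter probe sets.

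How small a difference the arrays could have shown is given by the 95% interval of each log2 difference. It lay within 0.5 on either side of 0, a 1.41-fold change, for 53 of the 73 members above the median signal (72.6%), against 32.9% of all probe sets above that signal. With the sow as a block it did so for 63 of the 73, against 64.4% of all. Restricted to the 42 probe sets at or above the members' own median signal, a cutoff chosen after seeing the data, the share was 95.2% of the members and 71.1% of all probe sets as bright. For most of the bright members a difference larger than 1.41-fold therefore lay outside the interval, while the 11 dim probe sets had intervals that reached beyond it in every case.

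**Figure D1:**
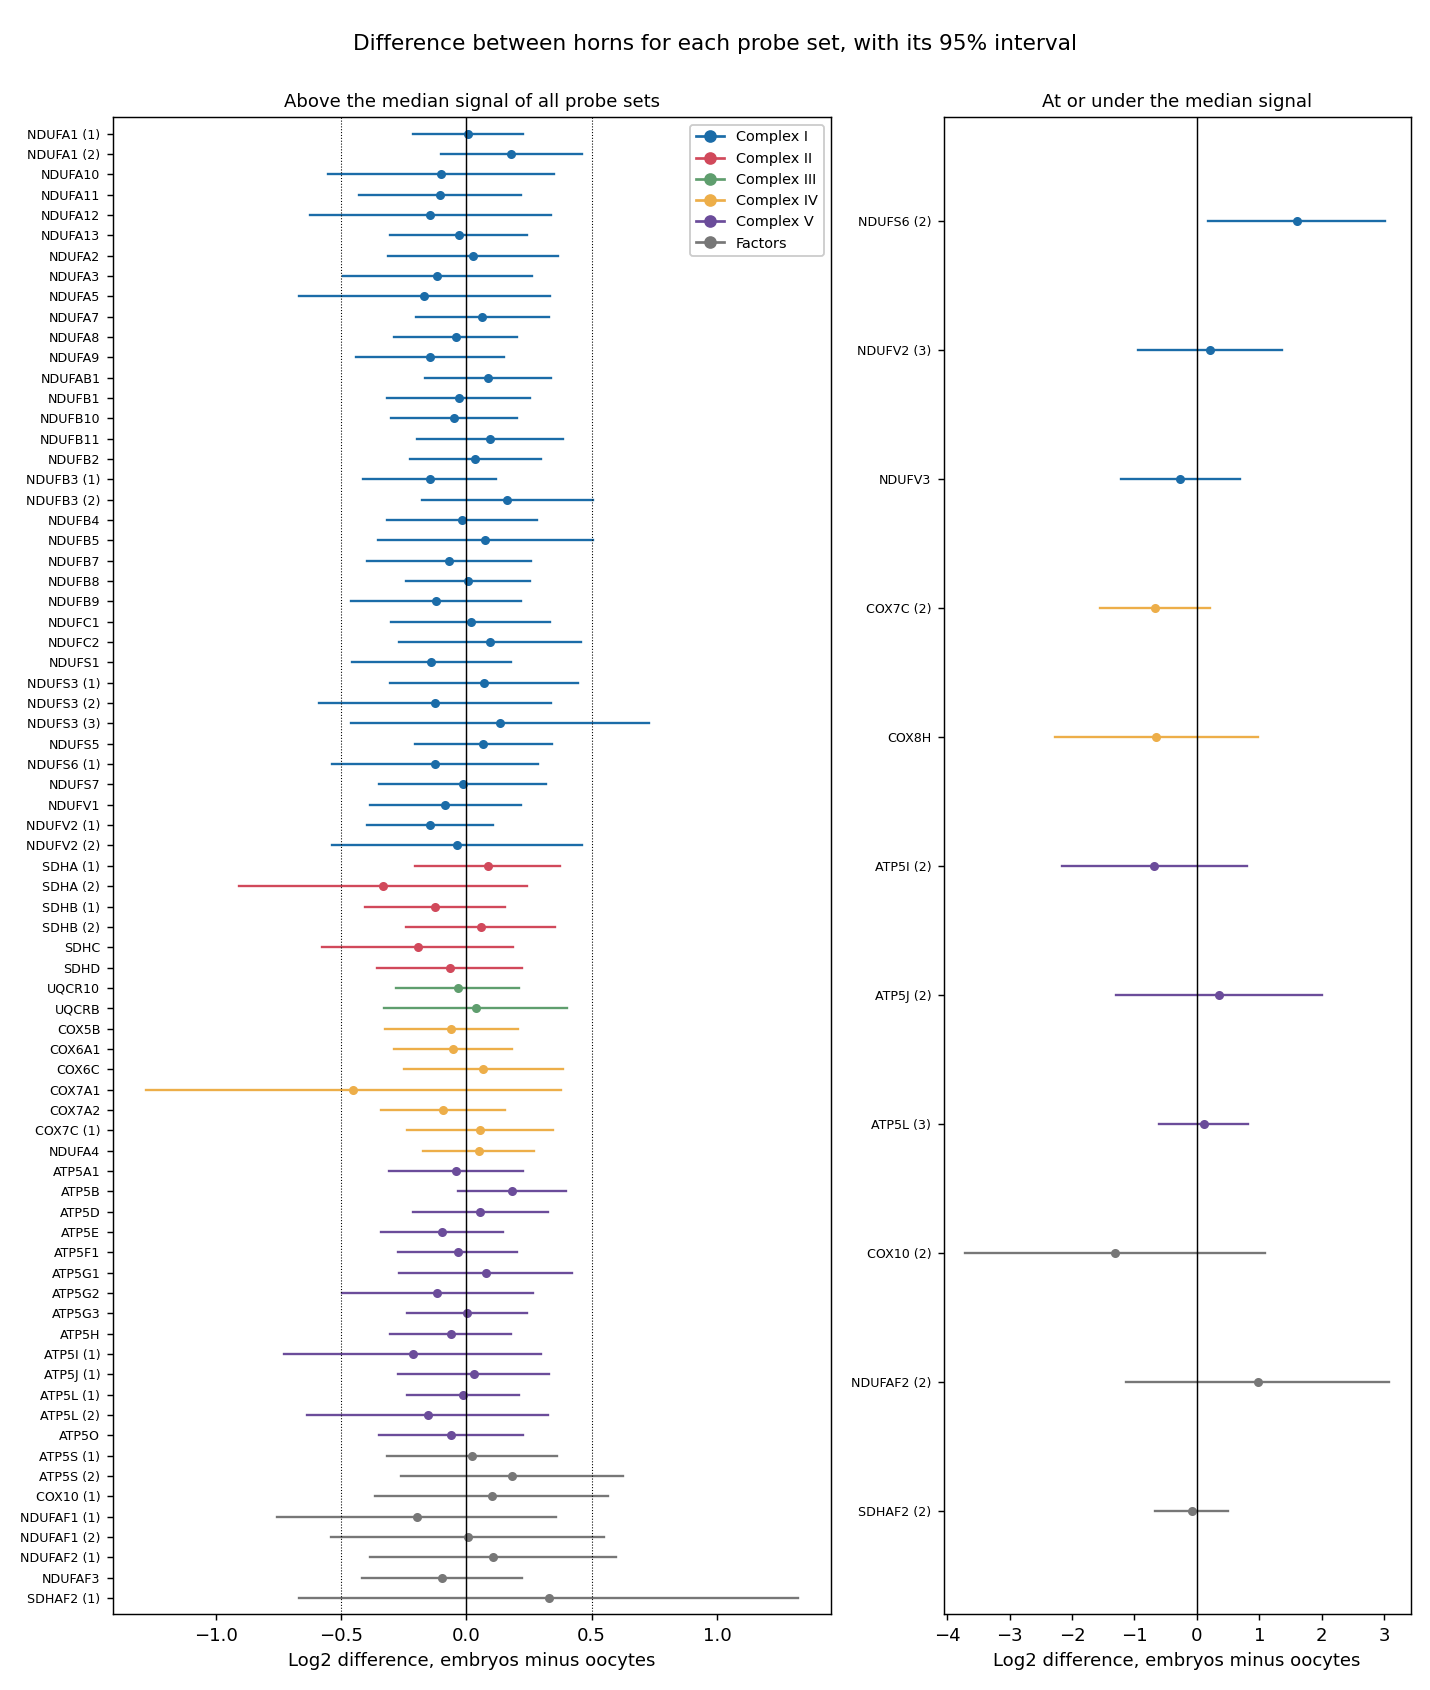
Log2 difference, embryos minus oocytes, of all 84 member probe sets (points) with their 95% intervals from limma (lines), coloured by complex, for the 73 above the median signal (left, dotted lines at 0.5 on either side of 0) and the 11 at or under it (right, wider axis). Probe sets of the same gene are numbered from the brightest, and the NDUFS6 (2) interval, from 0.18 to 3.02, is the one that leaves out 0.

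The pattern by signal is plotted for all tested probe sets with the members on top. Above the median signal the median absolute log2 difference was 0.08 for members and 0.11 for all probe sets, with a median standard error of 0.13 and 0.20. The median log2 signal of these members was 8.89, against 6.84 for all probe sets above the median.

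**Figure D2:**
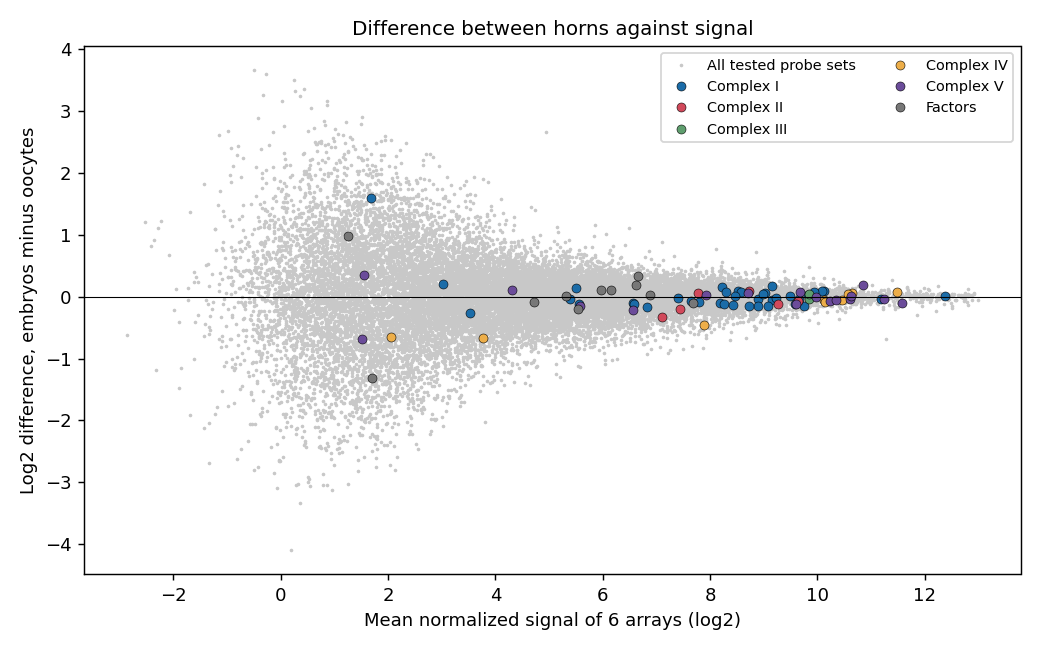
Log2 difference, embryos minus oocytes, against the mean normalized log2 signal of the 6 arrays, with each of the 23999 tested probe sets as a grey point and the 84 members coloured by complex. The differences widen towards dim signals in members and non-members alike, and 73 members lie above the median signal of 4.93.

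The arrays' control probe sets and marker genes differed as follows. The ratio of 5′ to 3′ signal, which is lower for degraded or incompletely copied RNA, was lower with embryos in all 3 sows for GAPDH (0.130 to 0.243 against 0.200 to 0.355) and for actin (0.0577 to 0.149 against 0.105 to 0.219). For EF1a it was also lower in all 3 sows, and the groups did not overlap (0.871 to 1.12 against 1.14 to 1.27). Of 10 epithelial markers 9 were measured and 8 were above the median signal, EPCAM, KRT8 and KRT18 among them, with sums of 8909 to 11495 with oocytes and 8687 to 12075 with embryos. Stromal markers (5 of 7 measured) summed to 3305 to 7022 with oocytes and 3220 to 6559 with embryos, and smooth muscle markers (5 of 6) to 561 to 2273 and 682 to 1550, both highest in sow 1. Leukocyte markers (5 of 6) all lay at or under the median signal. Endothelial markers (4 of 4) summed to 187 to 240 with oocytes and 181 to 272 with embryos, and red blood cell markers (2 of 3) to 362 to 966 and 423 to 942. No marker's brightest probe set was at 0 on any array. In scraped tissue, fewer cells of a type and less RNA per cell cannot be told apart, and the part of RNA quality and cell makeup in the results was not tested.

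Complex I, the NADH dehydrogenase, is the largest complex, and its 32 genes had 39 probe sets. Of these 17 were higher and 22 lower with embryos, with a median log2 difference of -0.03 and medians of -0.12, 0.04 and 0.03 in sows 1, 2 and 3. Among the subunits that carry electrons, NDUFV1, which binds NADH and flavin, had signals of 246, 225 and 217 with oocytes (given here in the order of sows 1, 2 and 3, as in all such lists) and of 230, 215 and 207 with embryos. It was lower with embryos in each sow, but the groups overlapped, and the difference was -0.08 (standard error 0.13). NDUFV2, the iron-sulphur subunit beside it, had 576, 534 and 587 with oocytes and 526, 510 and 500 with embryos, read at its brightest probe set. The deposited signals of the groups did not overlap, but after normalization the horn with oocytes of sow 2 (9.04 on the log2 scale) lay under the horn with embryos of sow 1 (9.07). The difference of -0.14 (standard error 0.11, unadjusted p = 0.222 from limma) had the same sign in every sow.

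NDUFS1, an iron-sulphur subunit of the electron input arm, had 335, 372 and 378 with oocytes and 274, 379 and 342 with embryos, a log2 difference of -0.14 (standard error 0.14). Only sow 1 and sow 3 had the lower value with embryos, and the groups overlapped. NDUFS7, which carries the last iron-sulphur cluster before ubiquinone, differed by -0.01 (standard error 0.15), with signals from 155 to 192 with oocytes and from 161 to 182 with embryos. NDUFS3 had 3 probe sets, at 0.07, -0.12 and 0.14 from the brightest to the dimmest, and none of them kept 1 sign in all sows.

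Among the accessory subunits of complex I, those that do not carry electrons, the smallest unadjusted p belonged to a dim probe set of NDUFS6. Its signals were 2.90, 2.40 and 1.40 with oocytes and 6.00, 9.80 and 4.90 with embryos. Every horn with embryos was above every horn with oocytes, and the log2 difference was 1.60 (standard error 0.62, 95% interval 0.18 to 3.02, unadjusted p = 0.0318 and adjusted p = 1.00 from limma). Its unadjusted p from limma was 0.0501 when the sow was a block, and it was 0.0839 without the horn with oocytes of sow 3 and 0.127 without the horn with embryos of sow 2. The same p was 0.00737 without a variance trend, 0.0306 as deposited, 0.0304 with quantile normalization and 0.0304 with equal medians. With 32 added to each signal the difference was 0.18. These signals lay far under the median of all probe sets, where 3.82% of probe sets had an unadjusted p under 0.05 and 9.38% did not overlap. The bright NDUFS6 probe set went the other way, at 112, 111 and 83.9 with oocytes and 87.5, 101 and 92.2 with embryos, a difference of -0.12 (standard error 0.18).

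The second brightest probe set of NDUFA1 had 506, 571 and 526 with oocytes and 540, 701 and 586 with embryos. The horn with embryos was the higher in every sow, although the groups overlapped. The difference was 0.18 (standard error 0.12, unadjusted p = 0.181, and 0.0422 with the sow as a block, both from limma). The brightest NDUFA1 probe set, with signals from 5193 to 5521 with oocytes and from 5213 to 5448 with embryos, differed by 0.01 (standard error 0.10). The other accessory subunits above the median signal lay between -0.17 (NDUFA5) and 0.16 (the dimmer probe set of NDUFB3), and NDUFAB1, the mitochondrial acyl carrier protein, stood at 0.09 and was higher with embryos in all 3 sows. NDUFA9, at -0.14 (standard error 0.13), and the brighter probe set of NDUFB3, at -0.15 (standard error 0.12), were lower in all 3 sows. Over complex I, 3 probe sets were higher and 4 lower in every sow.

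Complex II, succinate dehydrogenase, also serves the citric acid cycle, and all 4 of its genes were measured by 6 probe sets. Their median log2 difference was -0.10, the lowest of the 5 complexes, with medians of -0.13, -0.08 and -0.05 in the 3 sows. The median moved between -0.12 and -0.03 when single arrays were left out, and was nearest to 0 without the array of the horn with oocytes of sow 1. No probe set passed the adjusted threshold, and whether complex II differed from the other complexes was not tested. SDHC, 1 of the 2 membrane anchors, had signals of 217, 168 and 176 with oocytes and 186, 150 and 154 with embryos. Each sow had the lower signal in the horn with embryos, and the groups overlapped through the differences between sows. The log2 difference was -0.19 (standard error 0.17, unadjusted p = 0.278, and 0.0711 with the sow as a block, from limma).

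SDHA, the flavoprotein that oxidizes succinate, had 2 probe sets that did not move together. The dimmer one had 216, 146 and 121 with oocytes and 159, 104 and 117 with embryos, lower with embryos in each sow and highest in sow 1. Its log2 difference was -0.33 (standard error 0.25, unadjusted p = 0.219, and 0.0201 with the sow as a block, from limma), and its adjusted p with the block was 0.479. Without the array of the horn with oocytes of sow 1 the difference was -0.0945, and without that of sow 3 it was -0.52. The brighter one had 381, 454 and 406 with oocytes and 382, 478 and 462 with embryos, lowest in sow 1, with a difference of 0.09 (standard error 0.13). SDHB, the iron-sulphur subunit, had a brighter probe set at -0.12 and a dimmer one at 0.06, and SDHD, the other anchor, stood at -0.07 (standard errors 0.12, 0.13 and 0.13).

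**Figure D3:**
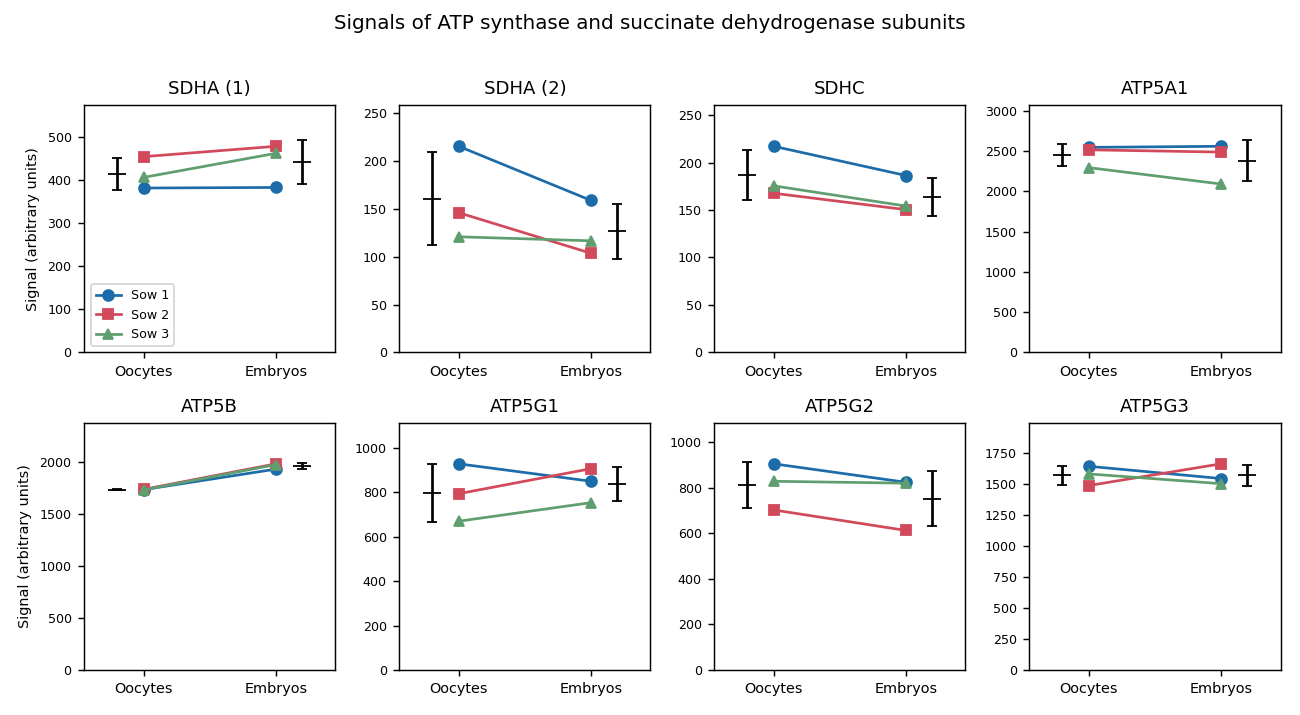
Deposited signals (arbitrary units, axes from 0) of SDHA, SDHC and the ATP synthase subunits ATP5A1, ATP5B and ATP5G1 to ATP5G3, with 1 line for each sow from its horn with oocytes to its horn with embryos and the mean and SD of the 3 arrays beside each group. ATP5B is the one whose groups do not overlap, and the dimmer SDHA probe set and SDHC slope down in each sow.

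Complex III was represented by 2 small subunits only. UQCRB, a subunit near the ubiquinone site, had 978, 732 and 1020 with oocytes and 947, 828 and 1006 with embryos, and UQCR10 had 874, 927 and 974 with oocytes and 819, 977 and 918 with embryos. Neither gene had 1 sign in all sows, and the groups overlapped. The log2 differences were 0.04 (standard error 0.16) and -0.03 (standard error 0.11). Their median, 0.00, says nothing of the catalytic subunits of the complex.

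Complex IV, cytochrome c oxidase, was measured by 9 probe sets of 8 nuclear genes. With embryos 3 of them were higher and 6 lower, with a median of -0.06 and medians of -0.14, 0.05 and -0.06 in the 3 sows. COX5B, a nuclear subunit on the matrix side, had 1194, 1076 and 1125 with oocytes and 988, 1082 and 1192 with embryos. The sows went different ways, and the difference was -0.06 (standard error 0.12). NDUFA4, first described in complex I and counted here in complex IV, had 1468, 1490 and 1529 with oocytes and 1468, 1620 and 1545 with embryos, a difference of 0.05 (standard error 0.10). Counting NDUFA4 in complex I would have put the median of complex I at -0.02 and that of complex IV at -0.08.

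Several subunits of complex IV have a form typical of heart and muscle and a widely expressed form. COX7A1, the muscle form of subunit VIIa, varied most of the bright subunits, with 224, 290 and 331 with oocytes and 115, 198 and 373 with embryos. It was lower with embryos in sows 1 and 2 and higher in sow 3, and the groups overlapped. The log2 difference was -0.45 (standard error 0.36, unadjusted p = 0.248, and 0.0275 with the sow as a block, from limma), and ranged from -0.88 without the horn with embryos of sow 3 (unadjusted p = 0.0112 from limma) to -0.0548 without the horn with embryos of sow 1. The widely expressed COX7A2 had 1133, 1112 and 1226 with oocytes and 984, 1116 and 1157 with embryos, at -0.09 (standard error 0.11). COX6A1, the widely expressed form of subunit VIa, stood at -0.05 (standard error 0.10), with 1343 to 1538 with oocytes and 1361 to 1398 with embryos. COX8H, the heart form of subunit VIII, was dim, with 16.7, 2.7 and 5.1 with oocytes and 4.20, 3.20 and 4.70 with embryos. Its highest signal was in the horn with oocytes of sow 1.

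ATP synthase had 17 probe sets of 13 genes, 7 higher and 10 lower with embryos, with a median of -0.03 and medians of -0.06, 0.04 and -0.05 in the 3 sows. ATP5B, the beta subunit that carries catalysis in the F1 head, had the clearest separation of the horns among the bright members. Its signals were 1734, 1737 and 1731 with oocytes and 1931, 1982 and 1974 with embryos, so that every horn with embryos lay above every horn with oocytes. The means were 1734 ± 2.60 and 1963 ± 27.5 (SD, n = 3), and the ratios within sows were 1.11, 1.14 and 1.14. The log2 difference was 0.18 (standard error 0.09, 95% interval -0.03 to 0.40, unadjusted p = 0.0864, and 0.0208 with the sow as a block, from limma), and its adjusted p with the block was 0.482. It lay between 0.17 and 0.20 in the 14 other settings tried, leaving out each array among them. Its unadjusted p from limma was under 0.05 also when the test was run on probe sets above the median signal only (0.0476) or on 1 probe set a gene (0.0465). That p depended on the setting, and was 0.256 without a variance trend, 0.208 with equal medians and 0.118 without the horn with oocytes of sow 1. Of all 1941 probe sets as bright as the members' median or brighter, 80 (4.12%) did not overlap between the groups, 39 of them higher with embryos.

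The other subunits of the F1 head and of the stalks did not separate in this way. ATP5A1, the alpha subunit that forms the head with the beta subunit, had 2549, 2518 and 2296 with oocytes and 2562, 2490 and 2093 with embryos, with a difference of -0.04 (standard error 0.12). ATP5D and ATP5E, the delta and epsilon subunits of the central stalk, stood at 0.06 and -0.10 (standard errors 0.12 and 0.11). In the peripheral stalk, ATP5F1 (subunit b), ATP5H (subunit d), ATP5O and the bright probe set of ATP5J (coupling factor 6) lay between -0.06 and 0.03, each less than its standard error from 0.

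The 3 genes ATP5G1, ATP5G2 and ATP5G3 code for the same mature subunit c of the proton ring with different leader peptides. ATP5G1 had 929, 794 and 670 with oocytes and 851, 907 and 754 with embryos, a log2 difference of 0.08 (standard error 0.15). ATP5G2 had 906, 703 and 829 with oocytes and 825, 613 and 821 with embryos, at -0.12 (standard error 0.17), and ATP5G3 had 1640, 1485 and 1579 with oocytes and 1542, 1660 and 1500 with embryos, at 0.00 (standard error 0.10). The groups overlapped for all 3 genes. In the membrane part, the brightest probe sets of ATP5I (subunit e) and ATP5L (subunit g) stood at -0.21 (standard error 0.22) and -0.01 (standard error 0.10). A dim ATP5I probe set stood at -0.68 (standard error 0.65).

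**Figure D4:**
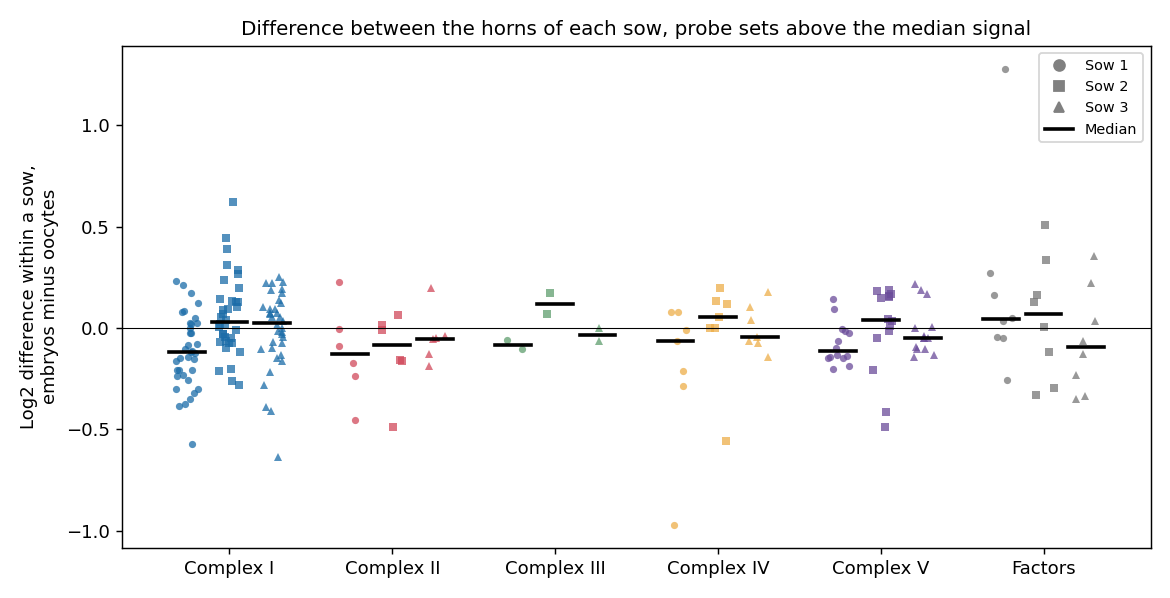
Log2 difference between the 2 horns of each sow, embryos minus oocytes, for the 73 members above the median signal by complex, with 1 point for each probe set and sow and black bars at the medians. Most points lie near 0. The median of all these members is lowest in sow 1 (-0.10, against 0.04 and -0.04 in sows 2 and 3). The same holds for complex I (-0.12, 0.03 and 0.02), complex II (-0.13, -0.08 and -0.05) and complex III (-0.08, 0.12 and -0.03). It also holds for complex IV (-0.07, 0.05 and -0.04) and complex V (-0.12, 0.04 and -0.05).

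The 6 assembly and associated factors had 11 probe sets, 7 higher and 4 lower with embryos, with a median of 0.02, and none had 1 sign in all sows. The median standard error of their differences was 0.24, against 0.13 for the subunits. SDHAF2, which adds flavin to SDHA, had 40.5, 140 and 134 with oocytes and 99.5, 110 and 138 with embryos for the brighter of its probe sets. The horn with oocytes of sow 1 was far under the other 5 horns, and the log2 difference of 0.33 (standard error 0.44) became -0.25 without that array. NDUFAF1, a complex I assembly factor, stood at -0.20 and 0.01 (standard error 0.24 for both), and the brighter probe set of COX10, which makes the haem precursor of complex IV, at 0.10 (standard error 0.20). Dim probe sets of COX10 and NDUFAF2 stood at -1.31 (standard error 1.05) and 0.98 (standard error 0.92).

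A total of 16 genes had more than 1 probe set, 35 probe sets together. In 5 of them (SDHA, NDUFB3, NDUFS3, NDUFAF1 and SDHB) probe sets above the median signal gave differences of opposite sign. The widest gap, 0.42 on the log2 scale, was that of SDHA. In NDUFB3, an accessory subunit of the membrane arm of complex I, the brighter probe set had 394, 473 and 465 with oocytes and 375, 412 and 417 with embryos, and the dimmer one 258, 280 and 310 with oocytes and 302, 382 and 276 with embryos. The former was lower with embryos in each sow (-0.15, standard error 0.12) and the latter higher in sows 1 and 2 only (0.16, standard error 0.15). Which probe set of a gene was read could thus decide the sign, but not the call.

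More members passed the test between sows than between horns. In the fit with group and sow, 8 of the 84 members differed between the 3 sows at an adjusted p under 0.05 (limma's moderated F test), 9.52% against 11.3% of all tested probe sets. All 8 were above the median signal, where they made 11% of members against 20.8% of all probe sets, and among those at or above the members' median signal the shares were 14.3% (6 of 42) and 31.3%. The share of members was thus below that of all probe sets of like signal. Sow, day of collection and handling of the arrays cannot be told apart here.

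NDUFA12, an accessory subunit of complex I, was highest in sow 2 in both horns, with 811, 1208 and 763 with oocytes and 655, 1055 and 803 with embryos (adjusted p between sows = 0.0120 from limma). ATP5G2 and UQCRB were lowest in sow 2 in both horns (adjusted p between sows 0.0226 and 0.0316 from limma). COX7A1 and NDUFB5, a membrane arm subunit of complex I, were lowest in sow 1 and highest in sow 3 in both horns (adjusted p between sows 0.0236 and 0.0293 from limma), NDUFB5 with 285, 370 and 481 with oocytes and 338, 398 and 445 with embryos. NDUFC2 and NDUFA2 were highest in sow 3 (0.0331 and 0.0443) and the dimmer SDHA probe set was highest in sow 1 (0.0268), with these adjusted p-values also from limma. Thus 4 of the 8 belong to complex I and 1 to each of the other complexes, and the order of the sows was not the same from gene to gene. Sow 1 also had the highest sums of stromal and smooth muscle markers and the lowest of epithelial markers, whose part in these differences was not tested. The count was 2 without the array of either horn of sow 1. The share of all tested probe sets was lower there too, at 5.49% without the horn with oocytes and 5.69% without the horn with embryos, against 11.3%. The count was 0, with 0% of all tested probe sets, when the variances were moderated without a trend on the signal.

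**Figure D5:**
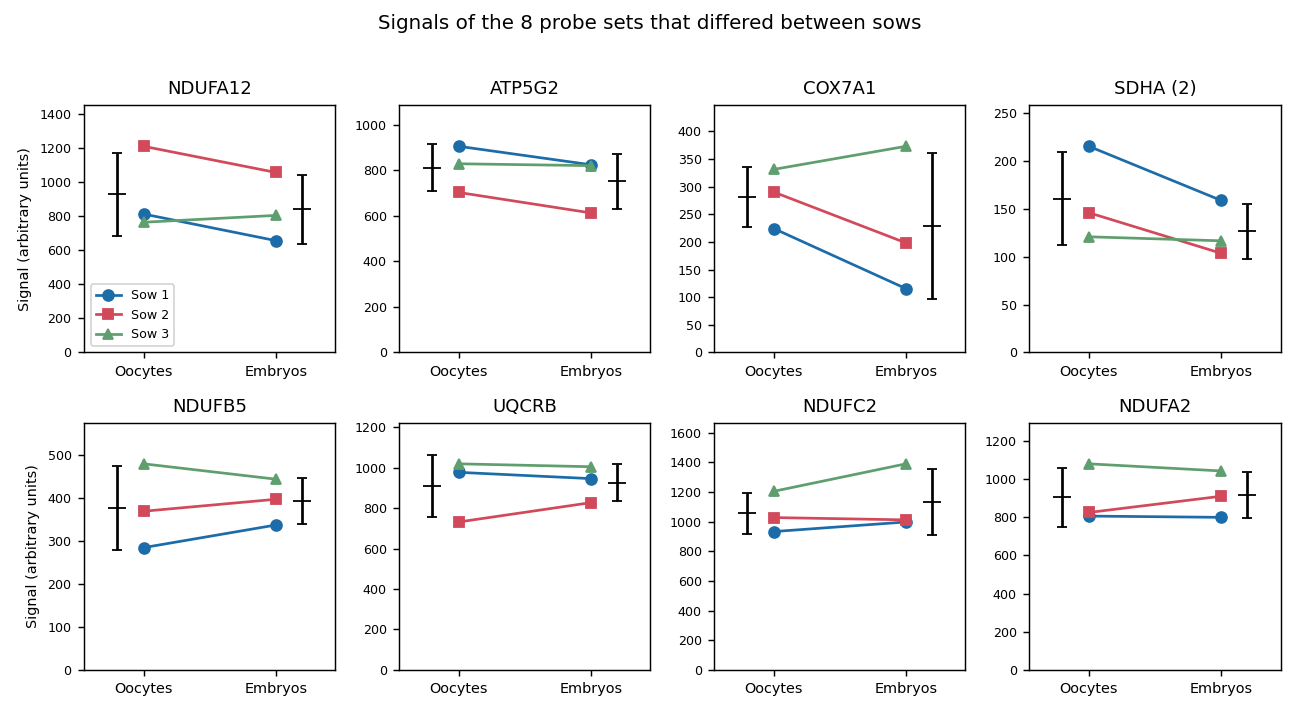
Deposited signals (arbitrary units, axes from 0) of the 8 members that differed between sows, with 1 line for each sow from its horn with oocytes to its horn with embryos and the mean and SD of the 3 arrays beside each group. In both horns sow 2 is highest for NDUFA12 and lowest for ATP5G2 and UQCRB, while the lines of the other sows cross for NDUFA12.

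Other genes of the pathway, outside the name rule, were read from a list of 56 genes, of which 27 were measured by 43 probe sets. Of these probe sets 22 were higher and 21 lower with embryos, and 0 passed the adjusted threshold. At an unadjusted p under 0.05 from limma 1 was higher and 0 lower (4 with the sow as a block). Such a p was found for 2.88% of all tested probe sets, and for 8.7% with the block. The 1 in the fit without the block was a probe set of PPRC1, a coactivator related to PGC-1 alpha that takes part in mitochondrial biogenesis. Its signals were 36.1, 29.3 and 35.2 with oocytes and 69.1, 55.4 and 48.7 with embryos. Every horn with embryos was above every horn with oocytes, with a log2 difference of 0.77 (standard error 0.22, unadjusted p = 0.00804 and adjusted p = 1.00 from limma). Of all tested probe sets 4.03% separated in the same direction. A dimmer PPRC1 probe set stood at 0.05 (standard error 0.44). The groups also did not overlap for the SCO2 probe sets, at -0.16 and -0.69 (standard errors 0.18 and 0.35). Nor did they for a VDAC2 probe set at -0.10 (standard error 0.11) and for the dim LYRM7 at 0.61 (standard error 0.43). Of all tested probe sets 8.01% did not overlap. CYCS, the cytochrome c that carries electrons from complex III to complex IV, had 278, 248 and 206 with oocytes and 305, 238 and 166 with embryos, at -0.08 (standard error 0.24).

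Among the carriers of the inner membrane, SLC25A4, an ADP/ATP exchanger, had 153, 180 and 199 with oocytes and 203, 255 and 198 with embryos. The groups overlapped through sow 3, and the difference was 0.30 (standard error 0.16, unadjusted p = 0.0928, and 0.0268 with the sow as a block, from limma). The other exchangers SLC25A5 and SLC25A6 stood at 0.00 and 0.01, and the phosphate carrier SLC25A3 at -0.05 (standard errors 0.15, 0.10 and 0.10). VDAC1, a porin of the outer membrane, had probe sets of opposite sign, at 0.13 (standard error 0.11) for the brighter and -0.36 (standard error 0.17) for the dimmer. The dimmer one had 593, 408 and 461 with oocytes and 410, 337 and 385 with embryos. It was lower with embryos in each sow, and its unadjusted p from limma was 0.0692, or 0.00201 in the fit blocked by sow. The brightest probe set of TFAM, which packs mitochondrial DNA and takes part in its transcription, stood at 0.08 (standard error 0.14).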

How the data were processed

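Per the labels the authors used Microarray Suite (MAS5) 5.1, and the deposited values are its signal intensity for 24123 probe sets, not logged. All arrays had been brought to 1 common mean, taken without the highest and lowest 2% of signals. The Lowess normalization named in the methods had not been applied to the deposited intensity values. Single probes and detection calls were not used here. Arrays have no sequencing depth, and with 3 arrays a group their number limits the precision.

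After a floor of 0.1 was set, cyclic loess was run on the log2 values of the arrays, and 124 control probe sets were removed. The 23999 others were fitted in R 4.3.3 with limma 3.58.1 (group as the only term, variances moderated with a trend on the signal, Benjamini-Hochberg adjustment at 0.05 over all of them). Signals in the text are as deposited, and differences, standard errors and directions within a sow and overlap between groups are of normalized log2 values. A brighter probe set was not read as a higher RNA level of its gene, and signals were set side by side only because dim probe sets vary more.

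Arrays of the 2 groups with the same replicate number were taken as the horns of 1 sow. The methods give ratios per animal for 1 gene, and these equal the ratios of same-numbered arrays. The deviations of same-numbered arrays from their group means also correlated at 0.207, 0.173 and 0.100. The sow was an alternative block, and differences between sows were tested with an F test in that fit. The script was tested on simulated data.

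Symbols came from the array's annotation, and all 84 members matched a current gene table with 0 symbols changed. Genes were put to complexes by hand. Named genes were the catalytic or electron-carrying subunits of each complex, the 2 probe sets with the smallest p in each, genes whose probe sets differed in sign, isoform genes and members that passed a threshold. The 2 factor probe sets with the smallest p and the bright members with the highest and lowest difference were named too. Further members were named to complete a subunit group, after their values were seen. The members, lists and tests were chosen with earlier results of these data known. Settings tried beside the one described were no normalization, quantile normalization, equal medians, an added 32, a cutoff at the median signal, variances without a trend, the block, 1 probe set for each gene, and leaving out each array. Figures were made in Python 3.11.15 with matplotlib 3.10.9.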

Additional observations from a re-analysis of the deposited data

How the results depend on the processing

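With 3 arrays a group, no member passed the adjusted threshold in any of the settings tried, and the median over all members stayed between -0.05 and -0.01. The count at an unadjusted p under 0.05 from limma was 1 in the other settings, 4 with the sow as a replicate block, and 0 to 2 when single arrays were left out (0 without embryos 2, and 2 without embryos 1 or embryos 3). The 4 with the block (ATP5B, COX7A1, NDUFA1 and SDHA) did not include NDUFS6, which was the 1 without it, and the block changed no adjusted call. The 1 was ATP5B with the cutoff at the median signal or 1 probe set a gene, and the dim COX10 probe set (unadjusted p = 0.0164 from limma) without oocytes 3. The median of complex II lay between -0.12 and -0.0321 when single arrays were left out. The members that differed between sows numbered 15 after scaling to the same median, with 5 of the 8 among them, 0 without a variance trend, and 2 to 10 when single arrays were left out (2 without oocytes 1 or embryos 1). Run and adjusted on the probe sets above the median signal only, the test between sows called 26.5% of them, and 11 of 73 members. With 1 probe set a gene it called 19.5% of all tested, and 10 of 65 members. The share of all tested probe sets was 0% without a variance trend, and 5.49% and 5.69% without oocytes 1 and embryos 1. With the block, 8.7% of all tested probe sets had an unadjusted p under 0.05. The causes were not tested.

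Of the 39 probe sets named by the rule, 14 changed sign in at least 1 of 14 settings. As deposited ATP5G3 stood at -0.000775, and with 32 added the dimmer NDUFAF1 probe set stood at -0.00329. When single arrays were left out, the log2 difference ranged from -0.25 to 0.64 for SDHAF2, -0.0908 to 0.0796 for NDUFS7, -0.15 to 0.0133 for SDHD, -0.11 to 0.0408 for ATP5A1, -0.0480 to 0.21 for ATP5G1, -0.22 to 0.0386 for ATP5G2, -0.0437 to 0.0544 for ATP5G3, -0.17 to 0.00991 for ATP5O, -0.12 to 0.13 for UQCRB, -0.0785 to 0.0201 for UQCR10, -0.15 to 0.12 for NDUFAF1, and -0.0687 to 0.18 for the brightest NDUFS3. The 2 dimmer NDUFV2 probe sets ranged from -0.14 to 0.0821 and from -0.12 to 0.44.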
